A study of Mus musculus with 9 samples.

Results

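The genes described here are 6 that encode parts of the phagocyte NADPH oxidase: Cybb, Cyba, Ncf1, Ncf4, Rac1 and Rac2. They were taken by symbol from deposited tables of 23234 gene symbols, and all 6 were found. RNA was sequenced from CD11b+ monocytes of C57BL/6 peripheral blood, sorted by Gr-1 at an age of 8 months, with about 100000 cells per library. Every mouse carried Yaa, a Y-linked duplication of an X-chromosomal segment with Tlr7 in it. The question of the series is how both monocyte subsets differ when Fcgr2, the gene of the inhibitory IgG receptor CD32 (Fcgr2b in the tables), is missing in different cell types.

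There were 9 libraries, 4 of Gr-1+CD11b+ cells and 5 of Gr-1-CD11b+ cells. The Gr-1+ libraries were labelled Fcgr2-/-.Yaa (2 libraries, here null), CEBPaCre;Fcgr2 fl/fl.Yaa (CEBPaCre) and CD19Cre;Fcgr2 fl/fl.Yaa (CD19Cre). The Gr-1- libraries were labelled null, CEBPaCre, CD11cCre;Fcgr2 fl/fl.Yaa (CD11cCre), CD19Cre and Fcgr2 fl/fl.Yaa (floxed), with 1 library each. Null mice lack the gene in all cells, while each Cre acts only where its driver does. The Cebpa driver acts in myeloid cells, the CD11c driver in dendritic cells and part of the monocytes, and the driver in CD19Cre mice in B cells. The floxed mice carry no Cre. Null and CEBPaCre were therefore pooled as deleted in myeloid cells (5 libraries), against CD19Cre and floxed as intact (3 libraries). CD11cCre was left out of that comparison. No genotype outside null Gr-1+ has more than 1 library per subset, and the labels do not say whether libraries came from separate animals, so p-values measure only the spread between libraries.

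The values are FPKM, fragments per kilobase of transcript and per mapped fragments, so levels can be compared between genes. Read counts were not used here and the depth in reads is unknown. The steps between low values put the depth of the libraries at 0.707 to 2.68 times that of the floxed library. The 9 classical monocyte markers summed to 4593 to 9215 FPKM in Gr-1+ cells, against 199.9 to 374 FPKM in Gr-1- cells, and the 10 nonclassical markers to 546 to 774 FPKM in Gr-1+ cells and 2340 to 3882 FPKM in Gr-1- cells, so the sorted subsets differed in their defining markers. Csf1r, a receptor of monocytes, stood at 389.8 to 681 FPKM in Gr-1+ cells, against 468 to 1191 FPKM in Gr-1- cells. Neutrophil markers (16 genes, led by S100a8 and Mmp8) summed to 882 to 2702 FPKM in Gr-1+ cells, against 75.5 to 156.8 FPKM in Gr-1- cells. Of the primary-granule genes in that list, Elane reached 4.87 to 18.03 FPKM in Gr-1+ libraries and at most 0.142 FPKM in Gr-1- libraries. Csf3r, Retnlg and Cxcr2 of the same list averaged 81.3, 52.0 and 6.20 FPKM in Gr-1+ cells, against 62.0, 34.4 and 7.80 FPKM in Gr-1- cells. These 3 did not pass in the comparison of subsets below, where 11 of 14 tested markers of the list were called higher (8.84% of all genes). The sum was not taken as a measure of neutrophil content. NK cell markers (10 genes) summed to 1.49 to 2.03 FPKM in Gr-1+ cells, against 24.1 to 460 FPKM in Gr-1- cells. B cell markers (7 genes) summed to 9.24 to 71.6 FPKM in Gr-1+ cells, against 43.97 to 157 FPKM in Gr-1- cells, and eosinophil and basophil markers (7 genes, led by Ear1 and Ear2, with Epx, Mcpt8 and Cpa3 at 0 in at least 5 libraries) to 36.6 to 248 FPKM in Gr-1+ cells, against 314 to 1018 FPKM in Gr-1- cells. T cell markers (7 genes) summed to at most 1.26 FPKM in Gr-1+ libraries, against at most 14.1 FPKM in Gr-1- libraries. The sums of 8 dendritic cell markers overlapped, with 52.4 to 166 FPKM in Gr-1+ libraries, against 38.4 to 132 FPKM in Gr-1- libraries. Fcgr2b stood at 83.0 to 200.7 FPKM in the libraries labelled deleted and at 74.9 to 195 FPKM in those labelled intact. The labels do not say which exons the alleles remove, so a value over the whole gene does not check the genotypes, and all genotype names below are those of the labels.

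The oxidase is the enzyme of the respiratory burst, in which phagocytes move electrons from NADPH across a membrane onto oxygen and so make superoxide. Its catalytic core, flavocytochrome b558, sits in the membrane and consists of gp91phox (Cybb) and p22phox (Cyba). At rest the organiser p47phox (Ncf1) and p40phox (Ncf4) stay in the cytosol. After a stimulus such as an engaged Fc receptor they move to the membrane with a Rac GTPase bound to GTP, and the core becomes active. Loss of core or cytosolic subunits causes chronic granulomatous disease.

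The 250 bases in front of the transcription start were taken from RefSeq (build GRCm38.p6) for the 3 members found in its promoter table, Cybb, Cyba and Ncf1. They are shown because Cybb and Cyba encode partners of 1 membrane complex and Ncf1 is the cytosolic member with the largest difference between subsets. All 3 lie on the minus strand and are written 5′ to 3′ in the direction of transcription, at chrX:9469325-9469574 for Cybb, chr8:122432941-122433190 for Cyba and chr5:134229626-134229875 for Ncf1. Capitals mark CCAAT in Cybb, GGGCGG in Cyba, and CCGCCC, the same GC box on the other strand, in Ncf1.
Cybb: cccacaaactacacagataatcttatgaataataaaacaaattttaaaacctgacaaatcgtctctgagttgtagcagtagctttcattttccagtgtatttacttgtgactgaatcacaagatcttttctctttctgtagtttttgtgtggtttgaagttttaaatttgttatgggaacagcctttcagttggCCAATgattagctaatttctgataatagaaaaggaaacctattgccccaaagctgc
Cyba: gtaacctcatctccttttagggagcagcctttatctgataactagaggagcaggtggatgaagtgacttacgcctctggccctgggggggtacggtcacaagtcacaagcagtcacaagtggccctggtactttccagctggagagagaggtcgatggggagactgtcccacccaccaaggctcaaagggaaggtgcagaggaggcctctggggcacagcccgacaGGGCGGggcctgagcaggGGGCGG
Ncf1: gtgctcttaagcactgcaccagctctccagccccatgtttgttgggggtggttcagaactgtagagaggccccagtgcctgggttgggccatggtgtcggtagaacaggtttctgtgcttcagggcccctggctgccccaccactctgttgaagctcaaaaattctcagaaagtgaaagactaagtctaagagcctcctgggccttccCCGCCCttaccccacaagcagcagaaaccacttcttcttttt
The upstream sequences of the membrane partners differed in composition, with 34% G and C in Cybb and 60% in Cyba, while Ncf1 had 54.4%. The median over 32851 RefSeq promoters of the same length was 52.4%. Cybb had 1 CCAAT, starting 56 bases before the start site. Cyba had GGGCGG starting 24 and 6 bases before it, and Ncf1 had CCGCCC starting 42 bases before it. Both strands were searched: CCAAT or ATTGG was in 33.8% of all promoters, and GGGCGG or CCGCCC in 32.7%. TATAAA or TTTATA (12.4% of promoters) and GAGGAA or TTCCTC (23.3%), letters that PU.1 sites can hold, were in none of the 3 windows. None of these motifs overlapped another in these windows. A match is a description of the letters and shows no binding.

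All 6 members were abundant in both monocyte subsets, and Cyba was far above the others. Its mean over the 9 libraries was 1630 ± 714 FPKM (SD), and it ranked between 10 and 46 among all symbols of a library. Cybb followed with 459 ± 64.8 FPKM, then Rac1 with 317 ± 76.4 FPKM, Ncf4 with 279.7 ± 151 FPKM, Rac2 with 220.1 ± 65.3 FPKM and Ncf1 with 77.9 ± 29.8 FPKM. Together the 6 made up 0.480% to 0.835% of the summed FPKM of a library. The order was firm only for Cyba at the top and Ncf1 at the bottom. Cyba exceeded Cybb in 9 of 9 libraries, by 2.28 to 6.05 times, Cybb exceeded Rac1 in 9 of 9, and Rac2 exceeded Ncf1 in 9 of 9. The middle of the order was not separated: Rac1 exceeded Ncf4 in 7 of 9 libraries and Ncf4 exceeded Rac2 in 6 of 9. Ncf4 also exceeded Cybb in the CD19Cre libraries, with 555 against 467 FPKM in Gr-1+ and 532 against 512 FPKM in Gr-1- cells.

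**Figure D1:**
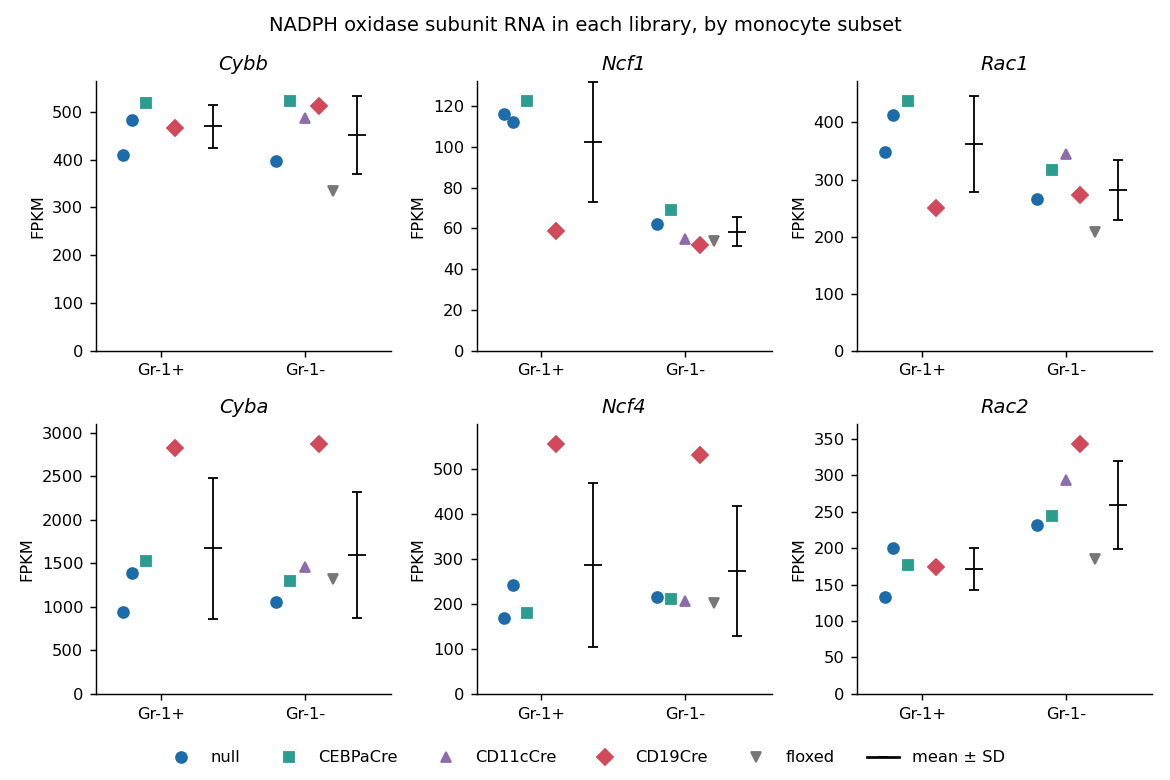
FPKM (y axis, from 0) of the 6 members in each library, with Gr-1+ libraries left of Gr-1- libraries. Each point is 1 library, its colour and shape give the genotype label, and black bars are the mean ± SD of 4 and 5 libraries. The CD19Cre diamonds stand above all other points for Cyba and Ncf4, and Ncf1 is highest in the null and CEBPaCre Gr-1+ libraries.

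Gr-1+ and Gr-1- monocytes were compared to ask whether oxidase RNA differs between the subsets. No difference was detectable in the membrane core, where intervals were wide. The cytosolic organiser Ncf1 was 1.68-fold higher and Rac2 1.49-fold lower in Gr-1+ cells, but neither passed after adjustment over all genes. None of the 6 members was called in limma at a Benjamini-Hochberg adjusted p of 0.05, in a fit in which 14.8% of 10436 genes were called (1544, with 8.84% higher and 5.95% lower). At an unadjusted p of 0.05, 2 members of 6 passed, Ncf1 and Rac2, where 27% of all genes did (2817), so that count is near the background. For none of the 6 did the subsets separate without overlap, against 16.5% of all genes (10.2% higher and 6.26% lower). The median log2 difference of the members was 0.06, and that of all genes tested was 0.09. In bulk samples, fewer cells of a type and less RNA per cell cannot be told apart.

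Cybb, the catalytic subunit, had 482.5, 409.95, 519 and 467 FPKM in Gr-1+ libraries (null replicates 1 and 2, CEBPaCre, CD19Cre), against 398, 523, 488, 512 and 334 FPKM in Gr-1- libraries (null, CEBPaCre, CD11cCre, CD19Cre, floxed). The ranges overlapped almost fully, and the lowest value of all was that of the floxed Gr-1- library. The means were 469.8 ± 45.5 FPKM in Gr-1+ cells (n = 4), against 451 ± 81.6 FPKM in Gr-1- libraries (n = 5). The log2 difference was 0.07 ± 0.21 (SE), with a 95% interval of -0.39 to 0.53 and an adjusted p of 0.861 in limma. Differences of up to about 1.45-fold in favour of Gr-1+ and 0.766-fold in the other direction lie within that interval.

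Cyba, which stabilises gp91phox and anchors the cytosolic subunits, had 1390 and 936 FPKM in the null, 1529 in the CEBPaCre and 2825 in the CD19Cre Gr-1+ library. In Gr-1- libraries it had 1059 (null), 1291 (CEBPaCre), 1454 (CD11cCre), 2867 (CD19Cre) and 1319 FPKM (floxed). The CD19Cre library was the highest in both subsets, and the other libraries overlapped. The log2 difference between subsets was 0.04 ± 0.37 (SE; adjusted p = 0.962, limma). The signs of Cybb and Cyba turned to -0.09 and -0.12 when each library was scaled to 1 sum, which moved the median of all genes from 0.09 to -0.05, so no direction is given for either. Within a library, the log2 ratio of Cybb to Cyba averaged -1.72 ± 0.61 in Gr-1+ and -1.75 ± 0.48 in Gr-1- libraries (SD, n = 4 and 5; exact two-sided permutation p = 0.913, also 0.913 after adjustment over 3 ratios).

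Ncf1, the phosphorylated organiser that carries the cytosolic subunits to the core, had 112.0, 116.0 and 122.5 FPKM in the null and CEBPaCre Gr-1+ libraries and 58.7 FPKM in the CD19Cre Gr-1+ library. In Gr-1- libraries it had 62.3 (null), 68.9 (CEBPaCre), 54.7 (CD11cCre), 52.0 (CD19Cre) and 53.9 FPKM (floxed). Of the Gr-1+ libraries, 3 stood above every Gr-1- library, and the CD19Cre Gr-1+ library lay within the Gr-1- range. The means were 102 ± 29.4 FPKM in Gr-1+ cells, against 58.4 ± 7.07 FPKM in Gr-1- cells. The log2 difference was 0.75 ± 0.24 (SE; 95% interval 0.22 to 1.28), with an unadjusted p of 0.00978 and an adjusted p of 0.0612 in limma. An exact two-sided permutation test of the 9 libraries gave p = 0.0238, with no adjustment. Without the CD19Cre Gr-1+ library the log2 difference was 1.00 ± 0.18 and the adjusted p 0.00438 in limma, where 14.8% of all genes were called. Leaving out both CD19Cre libraries gave 0.96 ± 0.16 with an adjusted p of 0.00474 in limma, where 15.9% were called. The adjusted p of Ncf1 ran from 0.00438 to 0.190 over its 21 alternatives, and its direction held in all 21. It was 0.0335 in limma with genotype as a block, and 0.0568 with a replicate block over the 3 pairs of 1 genotype alone. The summed neutrophil markers were 2702 and 882 FPKM in the null, 1099 in the CEBPaCre and 2037 FPKM in the CD19Cre Gr-1+ library. They did not follow the order of Ncf1 among those 4, and their part in the difference between subsets was not tested.

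Ncf4, whose product p40phox binds the phagosomal lipid phosphatidylinositol 3-phosphate, had 242.9 and 169.96 FPKM in the null, 179 in the CEBPaCre and 555 in the CD19Cre Gr-1+ library. In Gr-1- libraries it had 215 (null), 212 (CEBPaCre), 206 (CD11cCre), 532 (CD19Cre) and 203 FPKM (floxed). The subsets overlapped and the CD19Cre library was again the highest of each. Apart from it, the Gr-1- libraries lay within 203 to 215 FPKM. The log2 difference was 0.01 ± 0.40 (SE; adjusted p = 0.995, limma), and it turned to -0.15 under scaling to 1 sum. The log2 ratio of Ncf1 to Ncf4 averaged -1.37 ± 1.28 in Gr-1+ and -2.12 ± 0.70 in Gr-1- libraries, a difference of 0.75 (exact permutation p = 0.310, adjusted 0.464). That difference was 1.07 without both CD19Cre libraries, with an adjusted exact permutation p of 0.0429, and 1.38 without the CD19Cre Gr-1+ library alone, with 0.0268.

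Rac1, the GTPase found in nearly all cells, had 414 and 348 FPKM in the null, 438 in the CEBPaCre and 249.8 in the CD19Cre Gr-1+ library. In Gr-1- libraries it had 266 (null), 317 (CEBPaCre), 345 (CD11cCre), 272 (CD19Cre) and 207 FPKM (floxed). The Gr-1+ libraries other than CD19Cre stood above every Gr-1- library, with CD19Cre among the lowest. The log2 difference was 0.35 ± 0.24 (SE; 95% interval -0.17 to 0.87; adjusted p = 0.389, limma).

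Rac2, the GTPase restricted to blood cells and the main partner of the oxidase in mouse neutrophils, had 200.8 and 132.9 FPKM in the null, 177 in the CEBPaCre and 175 in the CD19Cre Gr-1+ library. In Gr-1- libraries it had 231 (null), 244 (CEBPaCre), 293 (CD11cCre), 343 (CD19Cre) and 185 FPKM (floxed). The subsets overlapped only through the floxed Gr-1- library, which lay below null Gr-1+ replicate 1. Also called lower in Gr-1+ cells were 8 of 9 tested NK cell markers, 4 of 5 B cell markers, 2 of 5 dendritic cell markers, both eosinophil and basophil markers tested (Ear1 and Ear2) and the 1 T cell marker tested; their part in the Rac2 difference was not tested. The means were 171 ± 28.2 FPKM in Gr-1+ cells, against 259 ± 60.6 FPKM in Gr-1- cells. The log2 difference was -0.58 ± 0.23 (SE; 95% interval -1.08 to -0.07), with an unadjusted p of 0.0288 and an adjusted p of 0.130 in limma, and an exact permutation p of 0.0238 with no adjustment. Rac2 was called under each of the 3 scalings tried. Its adjusted p in limma was 0.00855 for scaling to 1 sum, 0.0205 for the median ratio and 0.00833 for quantile normalisation, in fits that called 17.5%, 18% and 19.2% of all genes. With library weights both Ncf1 and Rac2 were called (22.8% of genes called), and with genotype as a block Ncf1 was (26%).

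The Rac genes had differences of opposite sign, neither called, and their ratio within a library separated the subsets. Rac2 over Rac1 was 0.486, 0.382, 0.405 and 0.699 in the Gr-1+ libraries (null replicates 1 and 2, CEBPaCre, CD19Cre), against 0.869, 0.769, 0.851, 1.26 and 0.890 in the Gr-1- libraries (null, CEBPaCre, CD11cCre, CD19Cre, floxed). Every Gr-1+ library was below every Gr-1- library, and only in the CD19Cre Gr-1- library did Rac2 exceed Rac1. The share of other gene pairs whose ratio separates the subsets was not computed, so this separation has no background beside it. Of single genes, 16.5% separated the subsets without overlap. The mean log2 ratio was -1.06 ± 0.39 in Gr-1+ and -0.13 ± 0.27 in Gr-1- libraries (SD, n = 4 and 5), a difference of -0.93. The exact two-sided permutation p was 0.00794, the smallest that 4 against 5 libraries allow, and 0.0238 after adjustment over the 3 ratios. A ratio within a library does not change when the whole library is multiplied by 1 factor, as with scaling to 1 sum or by the median ratio. Quantile normalisation moves genes unequally, and with it the difference was -0.90 (adjusted exact permutation p = 0.0238). With 1 library left out at a time the difference lay between -0.82 and -1.11. The subsets stayed apart each time, so the unadjusted exact p was always the smallest that the libraries left allow. The adjusted exact p was 0.0268 without the CD19Cre Gr-1+ library, where the ratio of Ncf1 to Ncf4 also gave 0.0268. It was 0.0536 or 0.0857 without any other, where fewer libraries allow fewer assignments. These values therefore do not show that the separation depends on which library is left out.

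**Figure D2:**
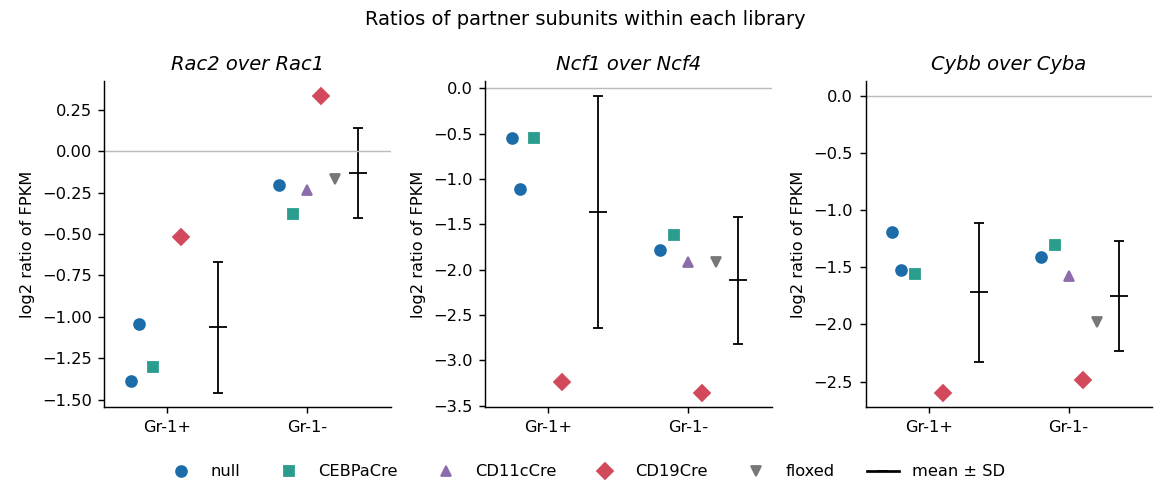
Log2 ratio of FPKM (y axis) of Rac2 over Rac1, Ncf1 over Ncf4 and Cybb over Cyba in each library, Gr-1+ left of Gr-1-. Points are libraries by genotype label, black bars are mean ± SD, and the grey line marks equal levels. Rac2 over Rac1 shows no overlap, with at most -0.52 in Gr-1+ and at least -0.38 in Gr-1- libraries, while CD19Cre lies lowest for both other ratios.

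Within the 3 genotypes that have both subsets, the ratio of Gr-1+ to Gr-1- libraries was below 1 for Rac2 in each, and for Ncf1 and Rac1 it was nearer to 1 in CD19Cre than in the others. Rac2 in Gr-1+ over Gr-1- libraries was 0.722 for null, 0.728 for CEBPaCre and 0.510 for CD19Cre. Ncf1 was 1.83 for null and 1.78 for CEBPaCre, against 1.13 for CD19Cre. Rac1 was 1.43 for null and 1.38 for CEBPaCre, against 0.918 for CD19Cre. For the other members these ratios lay between 0.845 and 1.18. Each is a ratio of single libraries (the mean of 2 for null Gr-1+) and has no test.

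Libraries labelled deleted and intact were compared at equal subset to ask whether loss of Fcgr2 in myeloid cells goes with other oxidase levels. None of the 6 members was called in limma, in a fit in which 0% of 10429 genes were called and 14.1% (1470) had an unadjusted p at or under 0.05. Of the members, 3 were at or under that unadjusted p: Cyba and Ncf4 lower and Ncf1 higher in the libraries labelled deleted. The median log2 difference was 0.01 for the members and -0.03 for all genes. Cyba averaged 1241 ± 242 FPKM in deleted (n = 5) and 2337 ± 882 FPKM in intact libraries (n = 3), with a log2 difference of -0.92 ± 0.33 (SE; unadjusted p = 0.0214, adjusted 0.308, limma). Ncf4 averaged 203.96 ± 29.5 FPKM in deleted and 430 ± 197 FPKM in intact libraries, with a log2 difference of -0.999 ± 0.359 (unadjusted p = 0.0210, adjusted 0.307, limma). Both intact means rest on the CD19Cre libraries: the floxed library had 1319 FPKM of Cyba and 203 FPKM of Ncf4, within the deleted range. Without both CD19Cre libraries the log2 difference was -0.17 ± 0.41 for Cyba and 0.07 ± 0.32 for Ncf4 (adjusted p = 0.888 and 0.947, limma), which leaves 1 intact library and called 0.048% of all genes. With library weights Ncf4 was called (adjusted p = 0.0418, limma), in a fit that called 6.45% of genes.

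Ncf1 averaged 96.4 ± 28.4 FPKM in deleted and 54.9 ± 3.42 FPKM in intact libraries. Of the 6 members, only Ncf1 had groups that did not overlap, with 62.3 to 122.5 FPKM in deleted and 52.0 to 58.7 FPKM in intact libraries, where 5.48% of all genes did not overlap (4.34% higher and 1.14% lower). These means and ranges pool both subsets, and Gr-1+ libraries made up more of the deleted than of the intact group. Among Gr-1- libraries Ncf1 had 62.3 and 68.9 FPKM in deleted, against 52.0 and 53.9 FPKM in intact ones. Among Gr-1+ libraries it had 112.0 to 122.5 FPKM in deleted, against 58.7 FPKM in the only intact one. The log2 difference at equal subset was 0.59 ± 0.22 (SE; unadjusted p = 0.0233, adjusted 0.308, limma). Without both CD19Cre libraries it was 0.28 ± 0.27 (adjusted p = 0.698). Rac1 averaged 356 ± 70.1 FPKM in deleted and 243.1 ± 32.9 FPKM in intact libraries, a log2 difference of 0.45 ± 0.23 (adjusted p = 0.389, limma). Cybb and Rac2 had log2 differences of 0.08 ± 0.25 and -0.07 ± 0.27. The sign of Rac2 flipped to 0.04 under scaling to 1 sum. Without the floxed library, the remaining intact libraries are both CD19Cre, and Cyba, Ncf1 and Ncf4 were called (adjusted p = 0.0167, 0.0401 and 0.00863, limma) together with 24.5% of all genes.

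**Figure D3:**
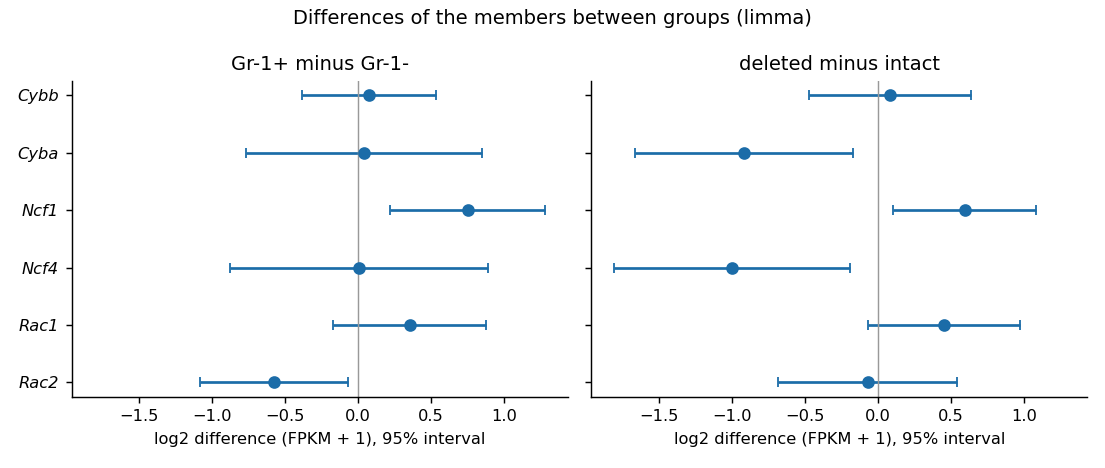
Log2 differences on the log2(FPKM + 1) scale (x axis) with 95% intervals from limma for the 6 members, Gr-1+ minus Gr-1- on the left and deleted minus intact on the right. Intervals that miss 0 (Ncf1 and Rac2 on the left, Cyba, Ncf1 and Ncf4 on the right) belong to the members with an unadjusted p under 0.05, and none passed after adjustment over all genes.

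Whether the subset difference itself differed between deleted and intact libraries was tested with an interaction term. None of the 6 members was called, where 0.0863% of all genes were (9 of 10429; 0.0479% in the positive and 0.0384% in the negative direction), and none had an unadjusted p at or under 0.05, where 3.25% of all genes did. For Ncf1 the subset difference was larger in deleted libraries by 0.68 ± 0.41 on the log2 scale (95% interval -0.26 to 1.62; adjusted p = 0.882, limma). The intact side of this term has a single Gr-1+ library.

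Over all 5 genotype labels at equal subset, limma's moderated F-test called Ncf4 and none of the other members, where 29.7% of all genes were called (3104 of 10436). At an unadjusted p of 0.05, 2 of 6 members passed, where 48.1% of all genes did. In limma, Ncf4 had a p of 0.00216, adjusted 0.0252. Cyba had an adjusted p of 0.0616 in limma, Ncf1 0.128, Rac1 0.225, Cybb 0.322 and Rac2 0.393. Ncf4 in CD19Cre libraries exceeded the floxed level by 1.46 ± 0.30 on the log2 scale (SE), while CD11cCre, CEBPaCre and null lay within -0.01 and 0.09 of it. Cyba in CD19Cre libraries exceeded floxed by 1.05 ± 0.39, and the other labels lay between -0.32 and 0.14. The adjusted p of Ncf4 in limma was 0.103 or 0.0721 without the Gr-1+ or Gr-1- CD19Cre library, 0.0847 or 0.0765 without the Gr-1+ or Gr-1- CEBPaCre library and 0.0716 without the null Gr-1- library. Without both CD19Cre libraries it was 0.961, no member was called, and 0.125% of genes were called (13 of 10423).

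The CD19Cre libraries stood apart in Cyba and Ncf4 and in other measures. Cyba was 2825 and 2867 FPKM in CD19Cre libraries, against 936 to 1529 FPKM in the other 7. Ncf4 was 532 to 555 FPKM in CD19Cre libraries, against 169.96 to 243 FPKM in the others. Set against the other libraries of its subset, the CD19Cre library was higher by 1.17 in Gr-1+ and 1.17 in Gr-1- cells for Cyba, and by 1.51 in Gr-1+ and 1.34 in Gr-1- cells for Ncf4, on the log2 scale. Ncf1 was lower by a log2 difference of -0.98 in Gr-1+ and -0.19 in Gr-1- cells. In Gr-1+ cells Rac1 gave -0.67, Rac2 0.06 and Cybb 0.00, and in Gr-1- cells Rac1 gave -0.03, Rac2 0.54 and Cybb 0.25, so the excess was not shared by all subunits. Each difference was ranked among 10521 genes averaging at least 1 FPKM. In Gr-1+ and Gr-1- cells, Cyba stood at percentiles 94.4 and 97.7 and Ncf4 at 98.3 and 98.9. Ncf1 stood at 8.27 and 23.3, Rac1 at 14.9 and 32.6, and Cybb and Rac2 between 42.0 and 74.5, so many genes differed as much as these. Ribosomal protein genes took 1.99% and 2.28% of the summed FPKM in CD19Cre libraries and 3.68% to 7.74% in the others. Cyba and Ncf4 belong to the quintile of transcripts richest in G and C and to the shortest quintile (744 and 1464 bases in GRCm38). The median log2 difference of CD19Cre from the other libraries of its subset was taken for each quintile. In the quintile richest in G and C it was 0.01 in Gr-1+ cells, against 0.12 to 0.19 in the other quintiles. In Gr-1- cells it was 0.27, against 0.12 to 0.28. The shortest quintile gave 0.00 in Gr-1+ cells, against -0.01 to 0.26 in the others, and 0.23 in Gr-1- cells, against 0.04 to 0.32. The part of these properties in the CD19Cre values was not tested.

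**Figure D4:**
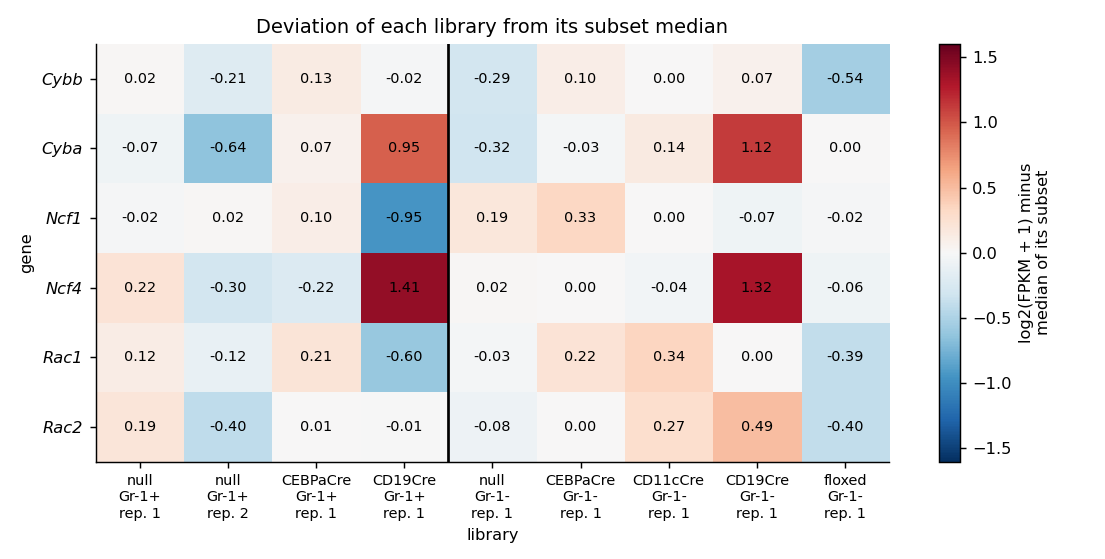
Deviation of log2(FPKM + 1) from the median of the library's own subset, for the 6 members (rows) and 9 libraries (columns), Gr-1+ left of the black line and Gr-1- right of it. Red is above and blue below the median. CD19Cre columns are high for Cyba (0.95 and 1.12) and Ncf4 (1.41 and 1.32), and the CD19Cre Gr-1+ column is low for Ncf1 (-0.95) and Rac1 (-0.60).

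The members did not vary as 1 unit over the 9 libraries. The libraries share subsets and genotypes, so the following correlations are descriptions. Cyba and Ncf4 gave a Pearson r of 0.92 on the log2 scale, before and after subtracting the subset means, but over the 7 libraries other than CD19Cre only 0.31 and 0.32, so that value rests on the CD19Cre libraries. Ncf1 and Ncf4, both cytosolic, gave -0.50 before and -0.80 after subtracting the subset means, and -0.33 and -0.08 without CD19Cre. Ncf1 and Rac1 gave 0.80 and 0.73, and 0.78 and 0.36 without CD19Cre. The membrane partners Cybb and Cyba gave 0.43 both times, and 0.48 and 0.51 without CD19Cre. Cybb and Rac2 gave 0.42, and 0.81 after subtracting the subset means, with 0.35 and 0.80 without CD19Cre. Cybb and Rac1 gave 0.62 and 0.63, and 0.83 and 0.96 without CD19Cre. Rac1 and Rac2 gave -0.13 and 0.45, and -0.10 and 0.89 without CD19Cre. Without CD19Cre and after subtracting the subset means, the lowest r of any pair was -0.15 (Cyba and Ncf1). Negative values below that among the 9 libraries therefore rest on the CD19Cre libraries or on the subset means.

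Among 4868 other genes averaging at least 10 FPKM, those most like each member over the 9 libraries, both CD19Cre libraries among them, included the following. Cybb was most like Gdap2 (r = 0.98), Map2k3 (0.97), a MAP kinase kinase of the p38 pathway, and Pygb (0.96), a glycogen phosphorylase. Those most like Cyba included Vps28 (0.99), a subunit of the ESCRT-I sorting complex, and Ssna1 (0.98). Ncf1 was most like Mcts1 (0.97), the calcium-binding S100a11 (0.96) and Mcee (0.96), a mitochondrial epimerase. Ncf4 was most like Tmem85 (0.98), Srrd (0.98) and the exosome subunit Exosc9 (0.98). Rac1 was most like the lysosomal ATPase Atp13a2 (0.98), Pef1 (0.98) and Lrrfip2 (0.98). Rac2 was most like Tmem51 (0.99), the lysosomal transcription factor Tfeb (0.98) and Crtc2 (0.96).

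In the mouse genome Cybb lies on chromosome X, Cyba on 8, Ncf1 and Rac1 on 5, and Ncf4 and Rac2 on 15. Ncf4 and Rac2 are near neighbours, with 10 protein-coding genes between them in GRCm38. Of those, Il2rb, the interleukin 2 receptor beta chain of NK and T cells, was lower in Gr-1+ libraries (0.105 FPKM, against 8.20 FPKM in Gr-1-; adjusted p = 0.0203, limma), where 8 of 9 tested NK cell markers were also called lower; their part in it was not tested. Csf2rb and Csf2rb2, which encode beta chains of the GM-CSF, IL-3 and IL-5 receptors, were not called (adjusted p = 0.480 and 0.220, limma). Cyth4, next to Rac2, had 343 to 415 FPKM in CD19Cre libraries and 113.7 to 207 FPKM in the others. Such a gap was not particular to Cyth4. Ift27 near Ncf4 (15.3 to 19.8, against 6.04 to 14.95 FPKM) and Wbscr16 near Ncf1 (5.26 to 7.29, against 2.76 to 3.83 FPKM) were also higher in CD19Cre libraries. Kdelr2 near Rac1 (7.54 to 8.63, against 11.7 to 24.7 FPKM) and Kctd17 (2.54 to 2.65, against 3.14 to 9.18 FPKM) were lower. The share of all genes with such a gap was not computed. Near Rac1, the ARF exchange factor Cyth3 averaged 13.5 FPKM in Gr-1+ cells, against 83.9 FPKM in Gr-1- cells (log2 difference -2.52 ± 0.21; adjusted p = 2.3e-05, limma). Next to Cyba, Mvd, an enzyme of the mevalonate pathway, averaged 18.8 FPKM in Gr-1+ cells, against 10.99 FPKM in Gr-1- cells (adjusted p = 0.0375, limma).

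Genes around the oxidase included larger differences between the subsets than any of the 6 members, among them enzymes that remove peroxide or supply NADPH and the calprotectin genes. The lists and their members were chosen with earlier results known, and their counts are given against the 8.84% of all genes called higher and 5.95% called lower. Among 5 other tested subunits, homologs and assembly factors, 1 was higher and 4 did not pass. The higher one was Hvcn1, the proton channel that carries charge out during the burst, with 3.75 ± 1.93 FPKM in Gr-1+ cells, against 1.34 ± 0.587 FPKM in Gr-1- cells (adjusted p = 0.0364, limma). It did not pass when both CD19Cre libraries were left out (adjusted p = 0.0690, limma). Rap1b, a small GTPase, averaged 675 FPKM in Gr-1+ cells and 909 FPKM in Gr-1- cells (adjusted p = 0.352, limma). The median log2 difference of this list was -0.24.

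Of 17 tested regulators of Rac, 3 were higher in Gr-1+ libraries, 2 were lower and 12 did not pass, with a median log2 difference of -0.16. Racgap1, a GTPase-activating protein also needed in cell division, averaged 16.5 ± 5.22 FPKM in Gr-1+ cells, against 6.31 ± 1.40 FPKM in Gr-1- cells, 2.35-fold higher (adjusted p = 0.00499, limma). Dock5, an exchange factor of Rac, averaged 7.82 ± 0.575 FPKM in Gr-1+ cells, against 20.8 ± 6.64 FPKM in Gr-1- cells, 2.37-fold lower (adjusted p = 0.00522, limma). Bcr, whose product can inactivate Rac, averaged 2.20 FPKM in Gr-1+ cells, against 0.845 FPKM in Gr-1- cells (adjusted p = 0.0141, limma).

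Of 18 tested kinases and lipid enzymes that act on the oxidase, 1 was lower in Gr-1+ libraries and 17 did not pass, with a median log2 difference of 0.07. The lower one was Prkcb, a protein kinase C that phosphorylates p47phox, with 27.5 ± 5.55 FPKM in Gr-1+ cells, against 48.4 ± 7.93 FPKM in Gr-1- cells, 1.74-fold lower (adjusted p = 0.0210, limma). The Rac effector kinase Pak1 averaged 9.89 FPKM in Gr-1+ cells and 5.35 FPKM in Gr-1- cells (adjusted p = 0.0691, limma). The phospholipase Pla2g4a averaged 13.3 FPKM in Gr-1+ cells and 8.58 FPKM in Gr-1- cells (adjusted p = 0.488, limma).

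Of 14 tested transcription factors known to act on oxidase genes, 2 were higher, 2 were lower and 10 did not pass, with a median log2 difference of 0.15. Cebpe, a factor of late granulocyte maturation, averaged 7.39 ± 5.02 FPKM in Gr-1+ cells, against 0.593 ± 0.182 FPKM in Gr-1- cells, 4.75-fold higher (adjusted p = 0.000494, limma). Cebpd averaged 52.0 FPKM in Gr-1+ cells, against 24.3 FPKM in Gr-1- cells (adjusted p = 0.0127). Nfkb1 averaged 34.4 FPKM in Gr-1+ cells, against 65.7 FPKM in Gr-1- cells, 1.86-fold lower (adjusted p = 0.0125, limma). Cebpe is itself in the neutrophil marker list. Of the 13 other tested neutrophil markers, 10 were called higher in Gr-1+ libraries, and their part in the Cebpe difference was not tested.

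Of 25 tested genes that remove reactive oxygen species, 5 were higher in Gr-1+ libraries, 2 were lower and 18 did not pass, with a median log2 difference of 0.44 against 0.09 for all genes. Prdx4, a peroxiredoxin of the secretory pathway, averaged 42.3 ± 3.25 FPKM in Gr-1+ cells, against 9.56 ± 0.639 FPKM in Gr-1- cells, 4.10-fold higher (adjusted p = 1.5e-05, limma). Glrx, a cytosolic glutaredoxin, averaged 76.0 ± 14.3 FPKM in Gr-1+ cells, against 13.9 ± 2.74 FPKM in Gr-1- cells, 5.17-fold higher (adjusted p = 3.0e-05). Gpx3, the secreted glutathione peroxidase, averaged 32.8 ± 18.8 FPKM in Gr-1+ cells, against 4.01 ± 2.71 FPKM in Gr-1- cells, 6.62-fold higher (adjusted p = 0.000898). All 4 Gr-1+ libraries were above all 5 Gr-1- libraries for each of these genes, where 10.2% of all genes separated in that direction. These genes were named for the smallest p of their list, so their separation adds no support. When both CD19Cre libraries were left out, 7 genes of the list were higher and 1 lower.

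Of 15 tested genes that supply NADPH, 2 were higher, none was lower and 13 did not pass, with a median log2 difference of 0.57. Idh2, the mitochondrial NADP-dependent isocitrate dehydrogenase, averaged 26.1 ± 8.62 FPKM in Gr-1+ cells, against 8.11 ± 3.16 FPKM in Gr-1- cells, 3.01-fold higher (adjusted p = 0.00311, limma). Idh1, its cytosolic counterpart, averaged 192 ± 92.0 FPKM in Gr-1+ cells, against 62.1 ± 30.3 FPKM in Gr-1- cells, 3.09-fold higher (adjusted p = 0.0114). Pgd, of the pentose phosphate pathway that feeds the oxidase, averaged 161 FPKM in Gr-1+ cells, against 94.998 FPKM in Gr-1- cells (adjusted p = 0.0616, and 0.0154 without both CD19Cre libraries, when 3 genes of the list were higher). Of the genes for peroxide use and calprotectin, 2 were tested and both were higher. S100a8 averaged 731 FPKM in Gr-1+ cells, against 9.17 FPKM in Gr-1- cells, 64.3-fold (adjusted p = 6.7e-06, limma). S100a9 averaged 236 FPKM in Gr-1+ cells, against 4.09 FPKM in Gr-1- cells, 46.8-fold (adjusted p = 1.2e-05, limma). Calprotectin, which they encode, binds the oxidase in neutrophils, and both genes are also in the neutrophil marker list.

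**Figure D5:**
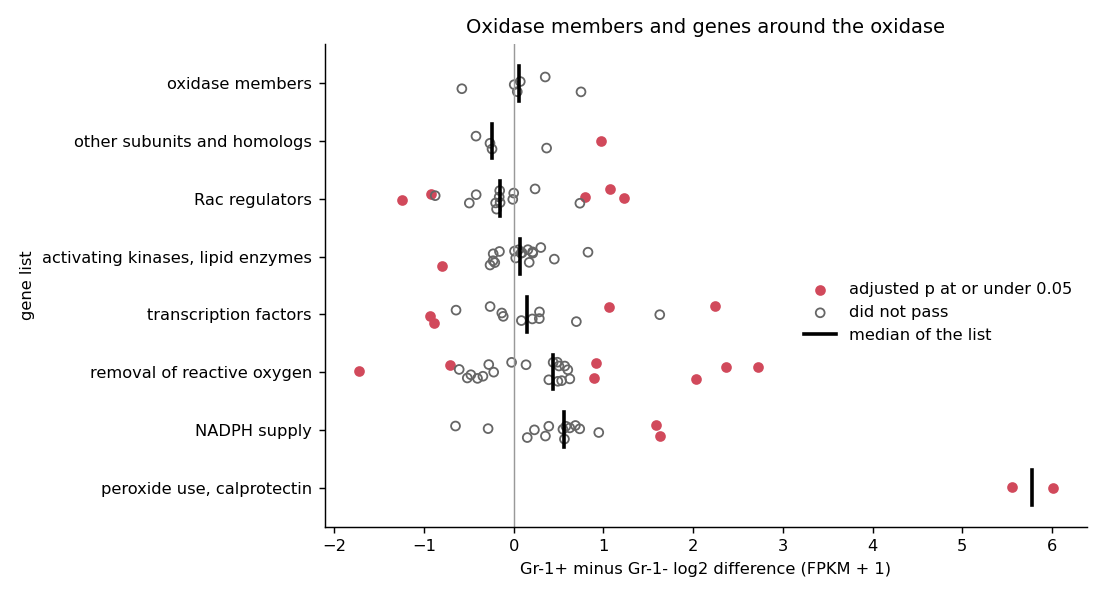
Gr-1+ minus Gr-1- log2 difference (x axis, log2(FPKM + 1) scale) of every tested gene of 8 lists (rows). Each point is a gene, filled red at an adjusted p at or under 0.05 in limma and open otherwise, and black bars are list medians. All 6 oxidase members are open points between -0.58 and 0.75, while points for removal of reactive oxygen reach 2.73 and calprotectin genes lie near 6.01 and 5.55.

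Between libraries labelled deleted and intact, no gene of any of these lists was called, as none was in all. The smallest p-values were those of Hmox1, the inducible heme oxygenase, and Tiam1, an exchange factor of Rac. Hmox1 averaged 110.3 ± 40.8 FPKM in deleted and 66.2 ± 21.5 FPKM in intact libraries. Its log2 difference at equal subset was 0.91 ± 0.27 (SE; adjusted p = 0.306, limma). Tiam1 averaged 7.14 FPKM in deleted and 2.44 FPKM in intact libraries. Its log2 difference at equal subset was 0.88 ± 0.27 (SE; adjusted p = 0.306, limma), or 1.84-fold. The means pool both subsets, and Gr-1+ libraries made up more of the deleted than of the intact group. Tiam1 was itself called higher in Gr-1+ cells (7.92 FPKM, against 2.95 FPKM in Gr-1- cells; adjusted p = 0.0485, limma).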

How the data were processed

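RNA of 9 libraries was sequenced on an Illumina HiSeq after SMART-Seq v4 cDNA synthesis, per the labels' protocols. The authors deposited 1 table per library with 1 FPKM value per gene symbol. TopHat2 2.0.8, Cufflinks 2.1.1 and the mm9 build are named in the submitters' processing notes; their settings and the annotation are not given in the sources used here. Of the value columns, 0 were left unmapped. Values of 0 can be failed estimates in such tables.

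The model was limma 3.58.1 (R 4.3.3, eBayes with a trend) on log2(FPKM + 1). Genes had to average 1 FPKM or more and to be above 0 in 2 libraries or more. Benjamini-Hochberg adjustment ran over all genes tested and calls were made at 0.05. A fold is a ratio of geometric means of FPKM + 1, which understates changes of low genes. The subset comparison had no covariate, and the deletion, interaction and genotype fits included the subset. Ratios of subunits were tested by exact permutation of the 9 libraries. Python 3.11.15 with numpy 2.4.6 and pandas 2.3.3 made the summaries, and statmod 1.5.0 was installed beside limma. Genotype as a block entered the model as a fixed term. The fits were tested on simulated data. For the 3 pairs of 1 genotype (null replicate 1, CEBPaCre, CD19Cre), deviations from the subset means correlated over genes at 0.29 to 0.55 within a genotype and -0.43 to 0.08 between genotypes; the labels do not say whether a pair came from the same animals.

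Members and lists were chosen with earlier results of these data known. Named by rule were all members, the 3 genes of each list with the smallest p between subsets, the 2 with the smallest p between deleted and intact, the 3 genes most like each member among those averaging 10 FPKM or more, and chromosomal neighbours. Not every result picked by these rules is reported here. RefSeq GRCm38 tables gave names, gene order and promoters; coordinates of promoters are GRCm38.p6, not the mm9 of the files. Alternatives covered the pseudocount (0.1), the filter (none or 5 FPKM), scaling, library weights, robust eBayes, genotype as a block and leaving out libraries.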

Additional observations from a re-analysis of the deposited data

Results flagged for a closer look

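Values were checked for single libraries far from the rest of their subset, and 4 of 18 were. Chance marks about 1 in 20 independent checks, but these share libraries and the ratios are made from the members' own values, so the count is not read against it. The ratio of Ncf1 to Ncf4 in the CD19Cre Gr-1- library restates the Ncf4 value there. All 4 are in CD19Cre libraries. Cyba had 2867 FPKM in the CD19Cre Gr-1- library, against 1059 to 1454 FPKM in the other Gr-1- libraries. Ncf4 had 532 FPKM there, against 203 to 215 FPKM. The log2 ratio of Ncf1 to Ncf4 was -3.35 there, against -1.91 to -1.62. Ncf1 had 58.7 FPKM in the CD19Cre Gr-1+ library, against 112.0 to 122.5 FPKM in the other Gr-1+ libraries.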

How the results depend on the processing

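With a replicate block over the 3 pairs of 1 genotype, 0 members were called and Ncf4 gave -0.00224. That block, the subunit ratios with quantile normalisation, the genotype block without both CD19Cre libraries and the genotype comparison without them were chosen after seeing the data. The number of members called between subsets, 0 of 6, became 1 (Rac2) under scaling to 1 sum, the median ratio or quantile normalisation, 1 (Ncf1) with genotype as a block, without both CD19Cre libraries or with both changes, 2 (Ncf1 and Rac2) with library weights and 2 in the unadjusted exact permutation test. Leaving out 1 library gave 0 to 1. Between deleted and intact it became 1 (Ncf4) with library weights, and 0 to 3 without 1 library. Over genotypes, 1 of 6 became 0 with no filter or without both CD19Cre libraries, and 2 (Cyba and Ncf4) with a filter of 5 FPKM, scaling to 1 sum, quantile normalisation, library weights or robust eBayes, and 0 to 2 without 1 library. The interaction called 0 members in each fit, and without the CD19Cre Gr-1+ library it could not be fitted.

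The ratio of Ncf1 to Ncf4 differed by 1.07 without both CD19Cre libraries (adjusted exact p = 0.0429) and by 0.44 to 1.38 without 1 library; Rac2 over Rac1 by -1.11 to -0.82, and Cybb over Cyba by -0.15 to 0.33, and by -0.0471 with quantile normalisation. Sign changes were all in differences that did not pass. Between subsets Cyba gave -0.0159 with library weights, -0.0647 with quantile normalisation, -0.0612 with the median ratio, -0.12 with scaling to 1 sum, -0.0169 without both CD19Cre libraries and -0.25 to 0.28 without 1 library. Cybb gave -0.0154, -0.11, -0.0275 and -0.0852 in the first 4 of these, and -0.0285 to 0.14 without 1 library. Ncf4 gave -0.11, -0.17, -0.0948, -0.15 and -0.10 in the same 5, -0.0873 with the genotype block, -0.15 with the block and without both CD19Cre libraries, and -0.37 to 0.28 without 1 library. Between deleted and intact Ncf4 gave 0.0733 and Rac2 0.36 without both CD19Cre libraries, Rac2 0.0600 with quantile normalisation and 0.0372 with scaling to 1 sum, and without 1 library Cybb gave -0.0757 to 0.21 and Rac2 -0.28 to 0.14. In the interaction Cybb gave 0.0311 with the median ratio and Rac2 -0.0107 with scaling to 1 sum, and without 1 library Cybb gave -0.44 to 0.17, Cyba -0.99 to 0.13 and Rac2 -0.42 to 0.47. The cause of these changes was not tested. Values without 1 library assume that a lone library of a group varies like the others.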
